A study of Mus musculus with 9 samples.

Results

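The vehicle libraries of the series hold the RNA of myeloid cells from dystrophic muscle without drug. They were chosen by their treatment label and make up 3 of the 9 libraries, and they are described here on their own, as a ranking of genes by abundance and as a ranking of genes by how far the 3 libraries lie apart. The mice were *mdx* mice, which lack dystrophin, and all 9 libraries come from mice with this mutation. Vehicle mice of both sexes drank MediDrop with sucralose for 7 days up to an age of 4.5 weeks, the age of peak muscle inflammation in this strain. Quadriceps pairs of 3 mice were pooled for each library, digested with collagenase and DNase, and sorted without fixation for CD45 and CD11b. No viability gate was used in the sort, and the sexes within each pool are not given in the sources used here. The spironolactone and prednisolone libraries, 3 of each, came from *mdx* mice of the same age that drank the drug in MediDrop for the same 7 days. They are used below only for the spread within their own group. Healthy muscle was not analysed here, so the levels below are not changes relative to it.

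Muscle fibers without dystrophin tear, die, and regenerate in waves. CD11b, the product of *Itgam*, is an integrin chain on monocytes, macrophages, neutrophils, and some dendritic cells. Neutrophils and CCR2-bearing monocytes enter injured muscle first, and monocytes then mature into macrophages that clear debris through phagocytosis and lysosomal digestion and that secrete factors for repair.

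Counts on genes totaled 32286813 in vehicle replicate 1, 32547837 in replicate 2, and 32578534 in replicate 3, so that a level of 1 CPM (counts per 1000000 counts on genes) equals about 32 counts. Of 50559 listed genes, 25778 had at least 1 count in any vehicle library and 19187 had one in all 3. Each library is a pool, the 3 pools are the replicates (n = 3), and all errors are SDs over the pools. Differences between the pools are descriptions without a test, because the labels name no factor that separates them. Counting intervals cover counting error only, since reads copied by PCR without molecular identifiers are not independent molecules. In such bulk samples, fewer cells of a type and less RNA per cell cannot be told apart.

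The sort markers were present in every pool. *Ptprc*, which encodes CD45, stood at 581, 605, and 617 CPM in replicates 1 to 3, and *Itgam* at 1148, 1244, and 1302 CPM. *Adgre1*, which encodes the macrophage antigen F4/80, had 723, 673, and 622 CPM, and *Fcgr1*, which encodes CD64, had 351, 453, and 505 CPM. The 38 lymphocyte genes summed to 297, 279, and 304 CPM. Most of this was *Il7r* (218, 196, and 216 CPM), the interleukin 7 receptor, and 8 members had a mean of at least 5 CPM. Defining markers were lower. *Cd3e* of T cells was at 0.248, 0.584, and 0.43 CPM and *Cd79a* of B cells at 0.217, 0.307, and 0.767 CPM. *Trac* and *Igkc* had 0 counts in all libraries, where 0 counts allow up to 0.0929 CPM. The annotation release is not given, and whether reads on *Trac* and *Igkc* were counted at all was not tested. The 47 skeletal muscle genes summed to 558, 781, and 788 CPM, the 34 fibro-adipogenic genes to 1715, 2257, and 2179 CPM, and the 31 endothelial and pericyte genes to 580, 755, and 697 CPM. The lists held abundant and rare members. *Acta1*, the actin of muscle fibers, had a mean of 136 CPM and the muscle creatine kinase *Ckm* 27.2 CPM, while *Pax7* of satellite cells had 1.49 CPM. The collagens *Col1a1* and *Col3a1* had means of 275 and 274 CPM, while *Pdgfra* of fibro-adipogenic cells had 3.77 CPM, and *Cdh5* of endothelium had 23 CPM. Their part in the results below was not tested.

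The pools stood apart from each other in 2 ways that touch most comparisons. Replicate 3 held many more neutrophil granule transcripts and far fewer Y-linked transcripts than replicates 1 and 2. Replicate 1 was the library most unlike the others. It had 9.33% of reads outside any gene, against 6.77% and 6.8%, and 6.81% multi-mapped reads, against 8.6% and 8.3%. Its median difference from a gene's 3-library mean also moved with the merged length of the gene's annotated exons. It went from -0.08 (log2) in the shortest of 5 equal classes of genes by this length to 0.13 in the longest. Replicate 2 went from 0.05 to -0.07 and replicate 3 from 0.04 to -0.05.

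A small number of genes took much of the RNA. The 94 genes with a mean of at least 1000 CPM held 27% of counts, the 1916 genes from 100 to 1000 CPM held 45.7%, and the 6593 genes from 10 to 100 CPM held 25.2%. It took 610, 544, and 558 genes to reach 50% of the counts in replicates 1 to 3 (mean 571 ± 34.8). The 10 most abundant genes of each library held 9.84%, 10.4%, and 10.4% of its counts.

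The mitochondrial gene *COX1*, which encodes a core subunit of cytochrome c oxidase, ranked first with 16183, 23649, and 21802 CPM. *Psap* ranked second with 15552, 12315, and 12774 CPM and *Ctsb* ranked after it with 15441, 12035, and 11926 CPM. Both act in the lysosome, *Psap* as the precursor of the saposins that help degrade sphingolipids and *Ctsb* as cathepsin B, a cysteine protease, and both were highest in replicate 1, where *COX1* was lowest. *Lyz2*, the lysozyme of myeloid cells, had 8356, 10903, and 10191 CPM. *Ftl1*, the ferritin light chain that stores iron, had 10077, 9256, and 9539 CPM. *Spp1*, which encodes the secreted matrix protein osteopontin, had 7302, 7717, and 10488 CPM and was highest in replicate 3. *Ctsd*, another lysosomal protease, followed with 7799, 6645, and 6916 CPM. *Apoe*, a lipid carrier, had 5758, 6794, and 4689.9 CPM, and *Gpnmb*, a glycoprotein of lipid-laden and phagocytic macrophages, had 6119, 4542, and 4791 CPM. The translation factor *Eef1a1* was the steadiest of the 25 most abundant genes, at 5727, 5755, and 5819 CPM. The remaining 15 of these 25 were mitochondrial (*CYTB*, *ND1*, *ND5*, *ND4*, *ND2*), cytoskeletal (*Vim*, *Actb*, *Tmsb4x*), phagocytic or lysosomal (*Lgals3*, *Ctss*, *Mpeg1*), or of other kinds: the ferritin heavy chain *Fth1*, the matrix protein *Fn1*, the mRNA-decay factor *Zfp36*, and the chaperone *Hspa8*.

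**Figure D1:**
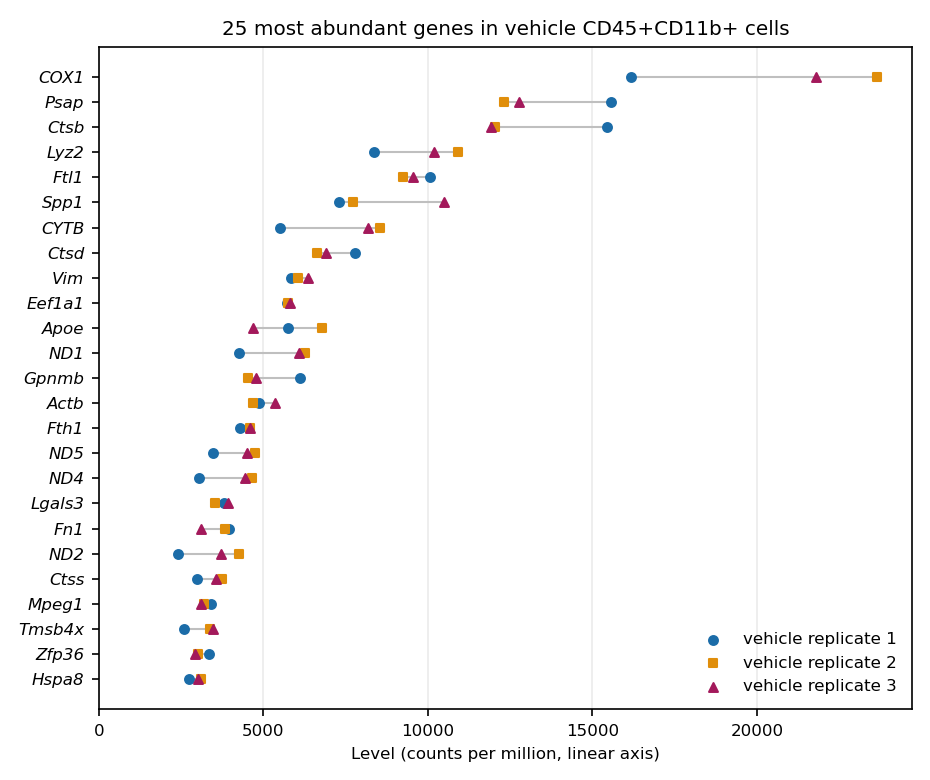
Level of the 25 most abundant genes (vertical) in CPM on a linear axis, one marker per vehicle library, with a gray line from the lowest to the highest library. The 3 libraries of *Eef1a1* lie between 5727 and 5819 CPM, whereas *COX1* spans 16183 to 23649 CPM.

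CPM favors long transcripts, so levels of different genes were compared per length, as TPM. Exon length here is the merged length of all annotated exons of a gene, which can exceed that of the transcripts present. TPM is the counts divided by this length and scaled to a sum of 1000000. On that scale *COX1* still ranked first with a mean of 50154 TPM and *Ftl1* rose to second with 27300 TPM, followed by *CYTB* with 24405 TPM, *ND1* with 21811 TPM, and *Psap* with 16188 TPM. *Spp1* and *Lyz2* kept similar levels of 11307 and 11159 TPM. The phagocyte marker *Cd68* stood at 8006 TPM, *Ctsb* at 6538 TPM, and the signaling adaptor *Tyrobp* at 4867 TPM. *Fn1* went from rank 19 by CPM to rank 137 by TPM. By TPM the 10 most abundant genes held 18.1%, 21%, and 20.4% of the total in replicates 1 to 3. Mitochondrial genes are not all measured equally well: *COX2* had 83.5, 140, and 160 CPM and *COX3* had 20.9, 45.6, and 40.2 CPM, far under *COX1*, and reads that map to more than one place were not counted. The part of multi-mapped reads in this gap was not tested.

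Among 32 gene lists, the largest share of counts fell to the lipid-associated and repair macrophage genes. These 30 genes held 7.27%, 6.62%, and 6.85% of counts (mean 6.91% ± 0.329), and 8.1% of TPM. The 34 genes of the lysosome and cathepsins held 6.2% ± 0.523, the 13 mitochondrially encoded genes 4.71% ± 0.951, the 22 actin and cytoskeleton genes 3.21% ± 0.139, the 20 macrophage core genes 3.21% ± 0.168, and the 81 cytosolic ribosomal protein genes 3.13% ± 0.393. By TPM the mitochondrial list rose to 14.2% and stood above the lipid-associated list. The lists share members, such as *Ctsb* and *Ctsd*, so their shares do not add up. The counts of variable members given below do not add up either.

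**Figure D2:**
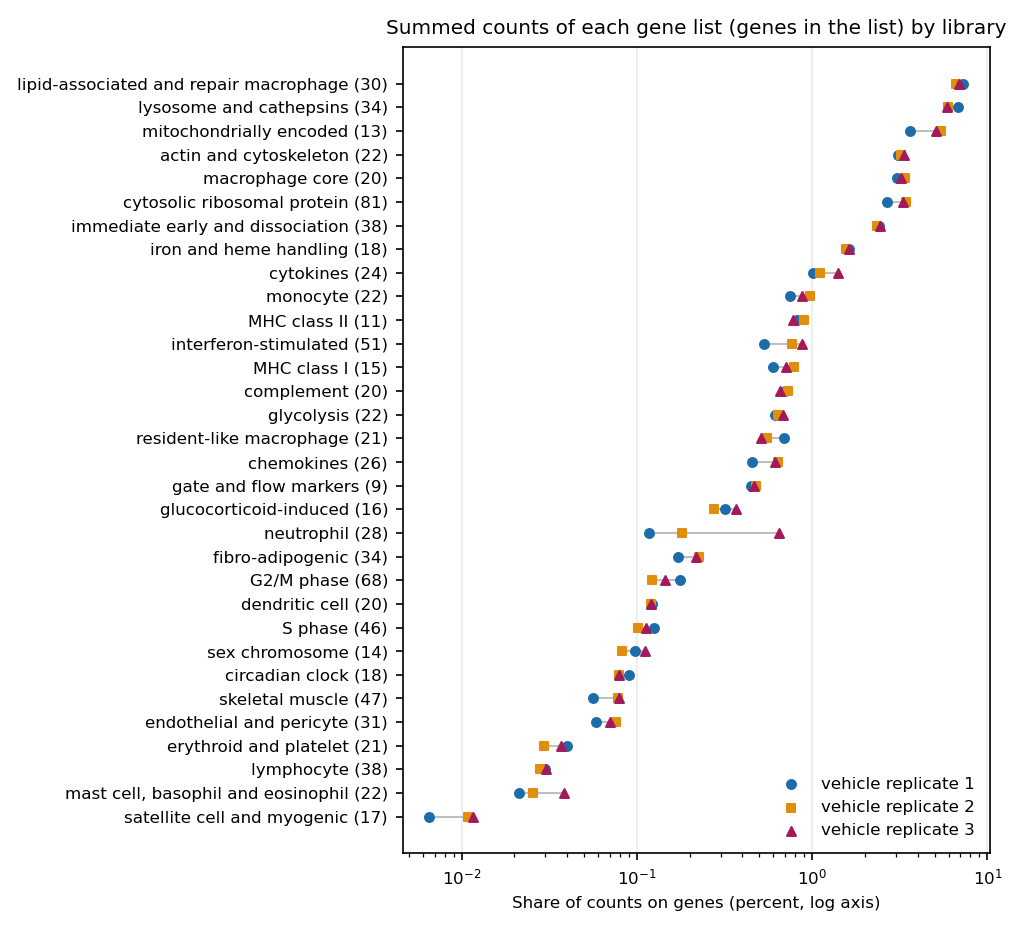
Summed counts of each gene list as a percent of all counts on genes (log axis), one marker per vehicle library, ordered by the mean, with the number of genes in parentheses. Lipid-associated and lysosomal genes lie between 5.87% and 7.27% in all 3 libraries, and the neutrophil list is the widest of the lists, from 0.117% to 0.648%.

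Smaller programs were also measured with some precision. Genes of the early stress and dissociation response, which rise within minutes of stimulation or tissue digestion, held 2.41%, 2.35%, and 2.43% of counts. *Zfp36* (3341, 3007, and 2939 CPM), *Hspa8* (2729, 3118, and 3005 CPM), and *Junb* (2516, 2547, and 2767 CPM) led the 38 genes. The 18 iron and heme genes held 1.6% ± 0.0375, led by both ferritins, and *Hmox1*, which breaks down heme, had 352, 339, and 360 CPM. The 24 cytokine genes held 1.17% ± 0.207, most of it *Spp1*. After it came *Il1b*, the precursor of the inflammatory cytokine interleukin 1 beta, with 468, 804, and 944 CPM, and *Tgfb1*, which encodes a fibrogenic and anti-inflammatory factor, with 762, 693, and 609.9 CPM. *Tnf* had 152, 167, and 175 CPM, whereas *Il10* had 30.2, 22.1, and 21 CPM.

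The 26 chemokine genes held 0.566% ± 0.101. *Ccl6* (1150.5, 1759.5, and 1439.6 CPM), *Cxcl2* (951, 1170, and 1492 CPM), and *Ccl9* (790, 1283, and 1196 CPM) were the 3 highest by CPM. The monocyte attractant *Ccl2* had 326, 636, and 488 CPM. Antigen presentation was carried by *Cd74*, the invariant chain, at 2369, 2390, and 1762 CPM and by *H2-Ab1* at 978, 1020, and 881 CPM, and the 11 class II genes held 0.829% ± 0.0628. The complement list held 0.693% ± 0.0327, with *C1qb* at 1861, 1828, and 1476 CPM, *C1qc* at 1209, 1037, and 843 CPM, and the integrin chain *Itgb2* at 937, 1148, and 1185 CPM.

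Other myeloid types were represented at lower summed levels. Monocyte genes held 0.865% ± 0.111 of counts, resident-like macrophage genes 0.584% ± 0.0931, neutrophil genes 0.315% ± 0.29, dendritic cell genes 0.121% ± 0.00119, and mast cell, basophil, and eosinophil genes 0.0284% ± 0.00902. The dendritic cell sum was the steadiest of the 32, with 1221, 1197, and 1209 CPM. Dendritic *Itgax* had 341, 320, and 318 CPM. Because *Itgax*, *Mrc1*, and several other list members are also made by macrophages, a list sum is not a count of cells.

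To see which genes set the pools apart, the highest and lowest library of each gene were compared among the 10136 genes with a mean of at least 5 CPM. A gene was called variable where the highest library was at least 2 times the lowest. The median ratio was 1.22, the 90th percentile was 1.57, and 263 genes (2.59%) were variable. Replicate 3 was the highest library in 139 of the variable genes (1.37% of genes measured), replicate 1 in 70 (0.691%), and replicate 2 in 54 (0.533%). Replicate 1 was the lowest in 166 (1.64%), replicate 2 in 46 (0.454%), and replicate 3 in 51 (0.503%). The order replicate 3, then 2, then 1 was the most frequent among them, with 119 of the 263 genes (45.2%). Of all genes measured, 18.3% had this order, and replicate 1 highest with replicate 3 lowest was the most frequent (25.7%). Pair by pair, 133 genes lay at least 2-fold apart between replicates 1 and 2, 196 between replicates 1 and 3, and 66 between replicates 2 and 3. At the threshold, *Rab27a* and *Zfp658* fell just short with ratios of 1.9968 and 1.9989, whereas *Per2*, *Lpin1*, and *AI839979* fell just inside at 2.0006, 2.0025, and 2.0063. With replicate 1 left out, 74 genes were variable, and with replicate 3 left out, 126 were.

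**Figure D3:**
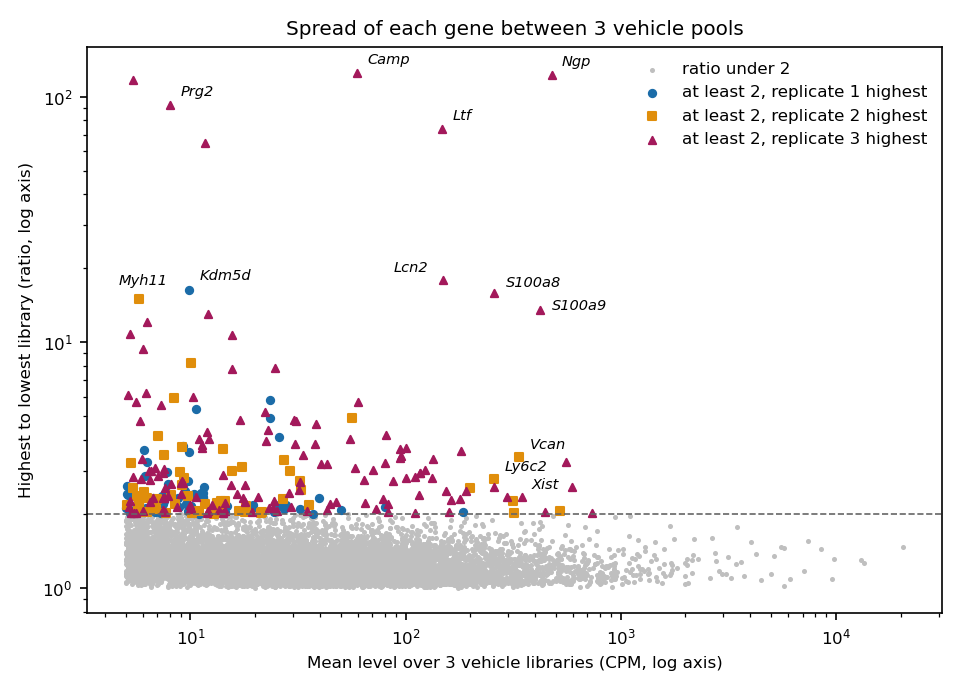
Ratio of the highest to the lowest vehicle library (log axis) against the mean level in CPM (log axis), one point per gene with a mean of at least 5 CPM. Gray points lie under the dashed line at a ratio of 2, and the 263 colored points at or above it are marked by their highest library. Neutrophil granule genes such as *Ngp*, with a ratio of 123, lie far above the other genes of similar level.

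The genes furthest apart were those of neutrophil granules, made in bone marrow precursors of neutrophils. *Ngp*, neutrophilic granule protein, had 73.5, 11, and 1348 CPM in replicates 1 to 3, so that replicate 3 exceeded replicate 2 by 123-fold (95% exact counting interval 111 to 137). *Camp*, the precursor of the antimicrobial peptide cathelicidin, had 7.19, 1.35, and 169 CPM. *Ltf*, the iron-binding lactoferrin, had 23.4, 5.62, and 416 CPM. In all 3 genes replicate 3 was far above the others and replicate 2 was lowest. The genes lie on chromosome 9 of GRCm39, *Camp* at chr9:109676442-109678685 on the minus strand and *Ngp* and *Ltf* at chr9:110248815-110252086 and chr9:110848339-110871835 on the plus strand.

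Sequence upstream of these genes was read to show one feature that the ranking did not use, the letters of a site bound by C/EBP factors, transcription factors of granulocyte maturation. RefSeq windows of 250 bases upstream of a start site (GRCm38.p6) were located by exact match in GRCm39 and are printed as far as the start of the GRCm39 gene model, in the direction of transcription. Capitals mark TTGCNNAA or its reverse complement. The *Ngp* window is chr9:110248626-110248814 and the *Ltf* window is chr9:110848110-110848338, both on the plus strand, and the printed match begins 77 bases before the gene model of *Ngp* and 54 bases before that of *Ltf*. The *Ngp* window held 2 matches, of which 1 lies past the start of the gene model and is not printed.
Ngp: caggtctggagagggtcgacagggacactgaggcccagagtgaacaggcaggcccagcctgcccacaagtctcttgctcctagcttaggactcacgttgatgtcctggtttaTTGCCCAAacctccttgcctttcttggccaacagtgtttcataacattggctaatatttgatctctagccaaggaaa
Ltf: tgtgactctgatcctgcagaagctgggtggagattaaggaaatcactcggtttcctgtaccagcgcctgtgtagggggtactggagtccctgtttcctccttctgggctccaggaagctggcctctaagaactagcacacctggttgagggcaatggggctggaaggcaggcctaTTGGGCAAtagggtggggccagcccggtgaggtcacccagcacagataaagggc
These letters occurred in 2582 of 27025 windows of the table (9.55%), in 7.42% of the 7990 windows of genes with a mean of at least 5 CPM, and in 6 of the 20 windows matched among the 25 most variable genes, those of *Fcnb*, *Lcn2*, *Ltf*, *Ngp*, *Rdh12*, and *S100a9*. The windows of *Camp* and *Elane* held no match. A match describes letters and is not a bound site.

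The neutrophil list as a whole moved with replicate 3. Its 28 genes summed to 1174, 1802, and 6479.6 CPM, a ratio of 5.52. Of 22 members with a mean of at least 5 CPM, 21 were variable, against 2.59% of all genes, and 21 were highest in replicate 3. The exception to variability was *Csf3r*, the receptor for granulocyte colony-stimulating factor, with 417, 547, and 681 CPM, and the chemokine *Cxcl3* was highest in replicate 2. For 5 of the 22 the lowest library was under 5 CPM, so they passed the level filter through the pools where they were high. Of the 17 members at 5 CPM or more in every library, 16 were variable, against 1.71% of 9712 genes. Without replicate 3, 10 of 18 members measured were variable, against 1.24% of all genes.

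Among the other neutrophil genes, the alarmins *S100a8* (40.1, 94.8, and 635 CPM) and *S100a9* (76.8, 145, and 1040.3 CPM) and the iron-sequestering *Lcn2* (22.1, 32.5, and 394 CPM) followed the order of replicates 1, 2, and 3. *Cd177*, a neutrophil surface protein, had 20.1, 45.7, and 115 CPM and *Cxcr2*, the receptor for neutrophil-attracting chemokines, had 21.9, 54.5, and 88.6 CPM. All 5 genes were lowest in replicate 1, and *Lcn2* had the largest ratio among them, 17.9. Granule genes of early precursors were low in replicate 2. *Mpo*, myeloperoxidase, had 2.63, 0.492, and 31.9 CPM, and *Elane*, neutrophil elastase, had 1.86, 0.123, and 14.3 CPM, the middle value from 4 counts. *Ly6g*, the surface marker that defines neutrophils by flow cytometry, fell under the level filter with 0.712, 0.154, and 13.4 CPM. Of the 22 members, 15 were lowest in replicate 1 (34.1% of all genes) and 7 in replicate 2, a share near the 31.3% of all genes.

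Granule genes of eosinophils, *Prg2* and *Epx*, were also highest in replicate 3. *Prg2*, the major basic protein, had 0.248, 0.891, and 23 CPM and passed the level filter through that library alone. *Epx*, eosinophil peroxidase, had 0.031, 0.184, and 8.99 CPM, the first value from 1 count, and fell under the filter. The surface genes *Siglecf* (22.4, 24.1, and 21 CPM) and *Ccr3* (15.1, 12.1, and 10.4 CPM) of the same cells lay close together. Hemoglobin transcripts differed less, with *Hbb-bs* at 19.3, 16.6, and 37.4 CPM and *Hba-a1* at 61.6, 40.7, and 73.9 CPM. Beside these genes, the skeletal muscle sum was 781 CPM in replicate 2 and 788 CPM in replicate 3.

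**Figure D4:**
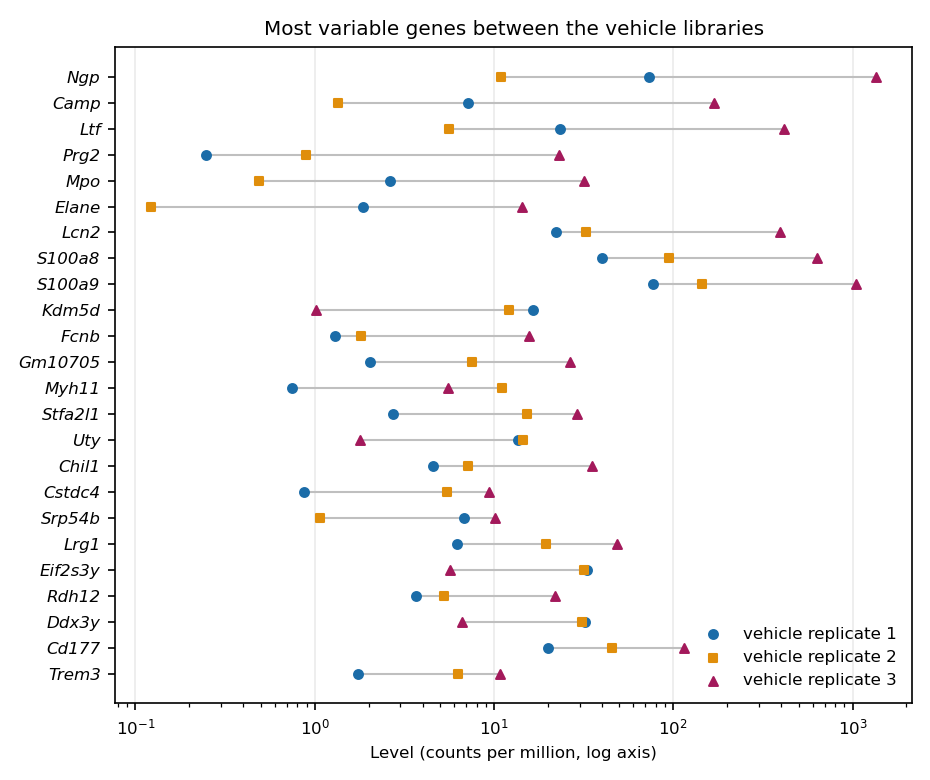
Level of 24 of the 25 genes with the largest SD of log2 CPM among genes with a mean of at least 5 CPM (vertical), in CPM on a log axis, one marker per vehicle library. Replicate 3 is highest for the granule genes at the top, such as *Ngp* at 1348 CPM against 11 CPM in replicate 2, and lowest for the Y-linked *Kdm5d*, *Uty*, *Eif2s3y*, and *Ddx3y*.

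The same 25 genes held 4 Y-linked genes, all lowest in replicate 3. *Kdm5d*, a histone demethylase, had 16.5, 12.1, and 1.01 CPM and *Uty*, from another family of histone demethylases, had 13.7, 14.6, and 1.78 CPM. *Eif2s3y*, a translation initiation factor subunit, had 33.2, 31.8, and 5.68 CPM, and the RNA helicase *Ddx3y* had 32.3, 31.1, and 6.6 CPM. Replicates 1 and 2 were close together in these genes. *Xist*, the RNA that coats the inactive X chromosome, went the other way, with 324, 214, and 499.9 CPM. The X-linked partners *Ddx3x* (297, 296, and 324 CPM) and *Kdm5c* (140, 129, and 151 CPM) differed by ratios of 1.09 and 1.16. No pool was without Y-linked counts. The sex makeup of replicate 3 cannot be told apart from its other differences in these 3 pools.

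The remaining variable genes of the first 25 did not share a list, though *Stfa2l1* is in the neutrophil list and *Myh11* in the endothelial and pericyte list. *Fcnb*, a ficolin of granulocytes and monocytes, had 1.3, 1.81, and 15.7 CPM, and *Chil1* had 4.55, 7.13, and 35.3 CPM. *Lrg1*, a secreted leucine-rich glycoprotein, had 6.19, 19.6, and 48.6 CPM, and the receptor *Trem3* had 1.73, 6.27, and 10.7 CPM. All of these were highest in replicate 3. *Myh11*, the smooth muscle myosin, had 0.743, 11.1, and 5.56 CPM, highest in replicate 2 and lowest in replicate 1. *Stfa2l1*, *Cstdc4*, *Srp54b*, and the processed pseudogene *Gm10705* have close copies in the genome, so their counts are uncertain. Except for *Lrg1*, the genes named in this paragraph had a lowest library under 5 CPM. They passed the level filter through the pools where they were high.

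Monocyte genes separated replicate 1 from the other pools. Of 21 members with a mean of at least 5 CPM, 11 were variable, against 2.59% of all genes, and 18 were lowest in replicate 1, against 34.1% of all genes. *Ly6c2*, which encodes the LY6C antigen of inflammatory monocytes, had 122, 338, and 314 CPM. *Vcan*, a matrix proteoglycan of classical monocytes, had 142, 482, and 389 CPM, and *Chil3* had 296, 721, and 762 CPM. Replicates 2 and 3 lay nearer to each other than to replicate 1 in all 3 genes. Of the 21 members, 12 were highest in replicate 3 (27.2% of all genes) and 7 in replicate 2 (24.7% of all genes). *Ccr2*, the chemokine receptor that brings monocytes into tissue, differed less, with 464, 723, and 582 CPM, and the highest member, *Fn1*, had its lowest value in replicate 3 (3962, 3845, and 3120 CPM). All 21 had at least 5 CPM in every library. Without replicate 1, 1 of 21 members was variable, against 0.732% of all genes. Without replicate 2 it was 10 of 21, against 1.97%, and without replicate 3 also 10 of 21, against 1.24%.

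Interferon-stimulated genes, which cells switch on in response to interferons, lay in the order of replicates 1, 2, and 3. Of 50 members measured, 18 were variable (2.59% of all genes), 45 were lowest in replicate 1 (34.1% of all genes), and 41 were highest in replicate 3 (27.2% of all genes). No member was highest in replicate 1. *Ifi205*, a nucleic acid sensor of the PYHIN family, had 29.8, 54.6, and 91.1 CPM. *Ifit1*, which binds viral RNA, had 38.6, 56.9, and 116 CPM, and the chemokine *Cxcl10* had 62, 109, and 181 CPM. The ubiquitin-like modifier *Isg15* had 36.4, 56.6, and 100.1 CPM, and *Irf7*, a transcription factor of the interferon response, had 279, 492, and 571 CPM. The most abundant member, *Ly6e*, was highest in replicate 2, with 1212, 2153, and 1706 CPM. The 18 variable members had at least 5 CPM in every library, as did 49 of the 50. Without replicate 1, 2 of 50 members were variable, against 0.732% of all genes. Without replicate 2 it was 16 of 49, against 1.97%, and without replicate 3 it was 4 of 50, against 1.24%.

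Because so many members moved together, the windows upstream of 3 of the variable members with the largest ratios are shown, with capitals on matches to GAAA, any 2 bases, and GAAA again, or the reverse complement of this motif, the core of the element bound by interferon-activated factors. The windows are chr19:34618039-34618270 on the plus strand for *Ifit1*, chr5:92496749-92496998 on the minus strand for *Cxcl10*, and chr4:156285304-156285525 on the minus strand for *Isg15* (GRCm39).
Ifit1: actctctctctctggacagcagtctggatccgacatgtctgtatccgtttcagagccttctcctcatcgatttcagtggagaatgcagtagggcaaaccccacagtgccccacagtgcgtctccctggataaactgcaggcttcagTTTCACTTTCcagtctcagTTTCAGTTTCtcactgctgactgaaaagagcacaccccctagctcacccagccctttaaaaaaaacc
Cxcl10: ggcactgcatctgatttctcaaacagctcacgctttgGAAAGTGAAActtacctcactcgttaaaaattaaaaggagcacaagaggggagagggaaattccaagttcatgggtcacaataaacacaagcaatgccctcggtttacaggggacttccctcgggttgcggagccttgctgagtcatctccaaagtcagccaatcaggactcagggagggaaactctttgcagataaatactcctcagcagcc
Isg15: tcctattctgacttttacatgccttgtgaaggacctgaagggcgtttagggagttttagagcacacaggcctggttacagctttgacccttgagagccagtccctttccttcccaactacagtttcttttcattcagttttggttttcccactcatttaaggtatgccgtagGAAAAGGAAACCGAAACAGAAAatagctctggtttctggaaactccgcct
Matches began 86 and 67 bases before the gene model of *Ifit1*, 213 bases before that of *Cxcl10*, and 50, 44, and 38 bases before that of *Isg15*, where they overlap. Of the windows of this table, 3.04% held a match, and so did 2.94% of those of genes with a mean of at least 5 CPM. Among the interferon-stimulated members, 21 of 37 windows held one (56.8%), and among the variable members 10 of 15. The list was assembled from genes known to respond to interferon, so this share describes how the list was made.

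Most chemokine and cytokine genes were lowest in replicate 1. Of 21 chemokine genes measured, 5 were variable (2.59% of all genes), 15 were lowest in replicate 1 (34.1% of all genes), and 11 were highest in replicate 2 (24.7% of all genes). *Cxcl3* had 16.6, 45.4, and 34.4 CPM, and *Ccl12* had 14.9, 34.6, and 36.4 CPM. *Cxcl3* was also counted in the neutrophil list, and the variable *Cxcl10* also in the interferon-stimulated list. Of 19 cytokine genes, 12 were lowest in replicate 1, 7 were highest in replicate 2, and 8 were highest in replicate 3. Of the 18 at 5 CPM or more in every library, 2 were variable, against 1.71% of genes. The 3 variable ones in all were *Il6* (2.91, 12.1, and 6.23 CPM), *Lif* (6.32, 15, and 7.95 CPM), and *Il1b*. *Il6* and *Lif* were highest in replicate 2, and *Il1b* was highest in replicate 3.

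Replicate 1 was instead the highest library for most resident-like macrophage and cell cycle genes, against 48.1% of all genes highest there. Of 16 resident-like members measured, 12 were highest in replicate 1 and 2 were variable, where 2.59% of all genes were. Of the 15 at 5 CPM or more in every library, 1 was variable, against 1.71% of genes. *Selenop*, a selenium carrier, had 2728, 2140, and 1734 CPM, *Mrc1*, which encodes the mannose receptor CD206, had 557, 421, and 384 CPM, and *Lyve1*, a hyaluronan receptor of vessel-associated macrophages, had 16.8, 10.3, and 7.43 CPM. *Timd4*, a phosphatidylserine receptor of resident macrophages, went against the list with 3.65, 4.76, and 10.9 CPM. The scavenger receptor *Cd163* fell just short of the threshold with 20.2, 13, and 10.2 CPM.

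Of 60 G2/M phase genes measured, 52 were highest in replicate 1 and 50 were lowest in replicate 2, against 31.3% of all genes lowest there. They summed to 1768, 1215, and 1452 CPM. The proliferation marker *Mki67* had 258, 126, and 169 CPM and was variable together with *Cenpe*, *Ncaph*, and *Cdca2*, 4 of the 60 against 2.59% of all genes. *Cdca2* had a lowest library under 5 CPM, and of the 57 members at 5 CPM or more in every library 3 were variable, against 1.71% of genes. Of 42 S phase genes, which act in DNA replication, 31 were highest in replicate 1, 31 were lowest in replicate 2, and none reached a 2-fold ratio. *Pcna* had 135, 117, and 134 CPM. Of 32 lysosomal genes, 18 were highest in replicate 1, a share near that of all genes, and none was variable.

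Ribosomal and mitochondrial genes were lowest in replicate 1. All 12 mitochondrial genes measured and 77 of 80 cytosolic ribosomal protein genes had their lowest value there, as did 34.1% of all genes. The mitochondrial sums were 36322, 54275, and 50722 CPM and the ribosomal sums 26777, 34154, and 32824 CPM. The mitochondrial genes *ATP8*, *ATP6*, and *COX3* were variable, and no ribosomal gene was, against 2.59% of all genes. Of the 10 mitochondrial genes at 5 CPM or more in every library, 2 were variable, against 1.71% of genes. These lists hold genes of short merged exon length. Relative to genes of the same length class, the shift of replicate 1 went from -0.44 to -0.36 (log2) for the mitochondrial list. For the ribosomal list it went from -0.23 to -0.18. The same step took the monocyte list from -0.64 to -0.52, the interferon-stimulated list from -0.38 to -0.40, the resident-like list from 0.30 to 0.23, and the G2/M list from 0.26 to 0.24. Every one of these lists kept its sign.

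**Figure D5:**
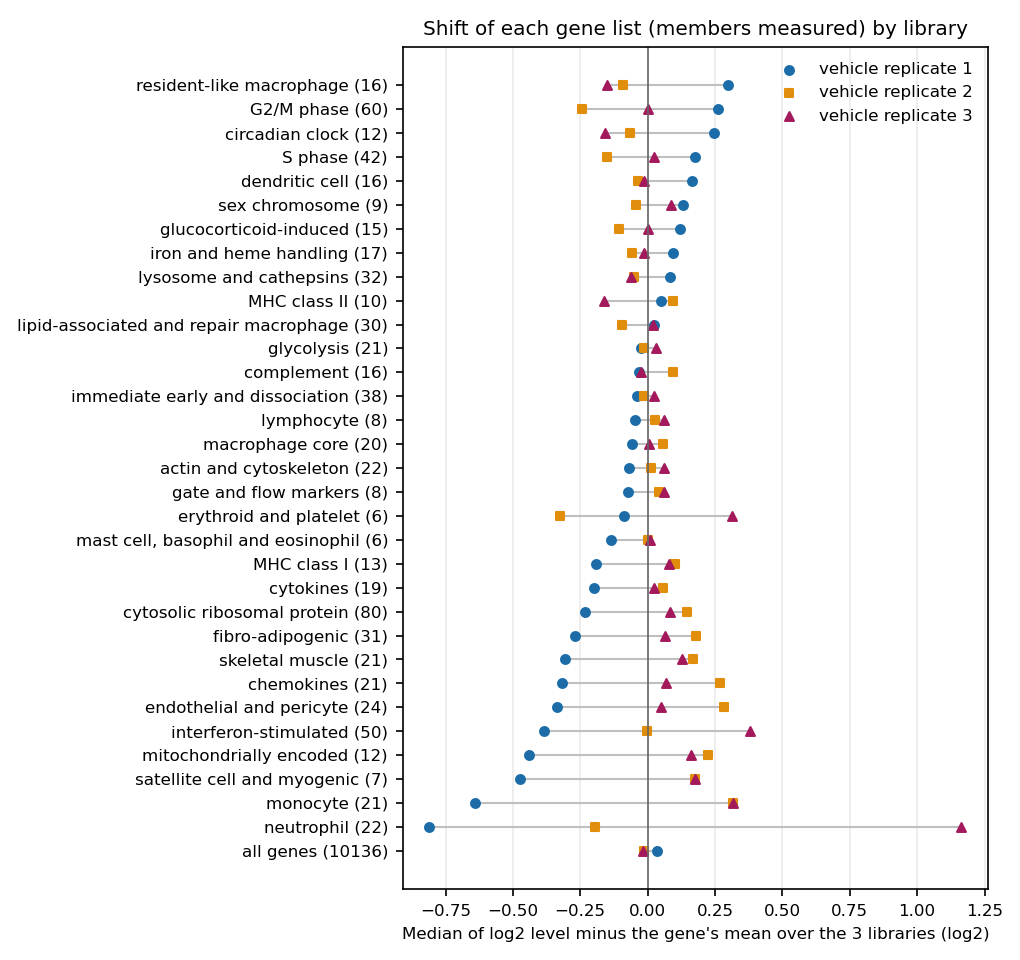
Median over the members of each gene list of the log2 level minus the gene's mean over the 3 vehicle libraries, one marker per library, with the number of members measured in parentheses. The neutrophil list reaches 1.16 in replicate 3, the monocyte list -0.64 in replicate 1, and the medians over all 10136 genes lie between -0.02 and 0.03.

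Skeletal muscle, fibro-adipogenic, and endothelial transcripts were lower in replicate 1 as well, where 34.1% of all genes were lowest. The erythroid and platelet sum (398, 293, and 367 CPM) was not, nor was the lymphocyte sum. Of 21 skeletal muscle genes measured, 19 were lowest in replicate 1 and 1 was variable, the intermediate filament gene *Des* with 21.5, 38.9, and 44.2 CPM. Of 31 fibro-adipogenic genes, 29 were lowest in replicate 1 and 2 were variable, *Ly6a* (17, 42.6, and 38.9 CPM) and *Pi16* (16.1, 22.2, and 34 CPM). Of 24 endothelial and pericyte genes, 18 were highest in replicate 2 (24.7% of all genes), 18 were lowest in replicate 1 (34.1%), and 5 were variable (2.59%), among them *Plvap* with 8.49, 25.4, and 12.8 CPM and the smooth muscle actin *Acta2* with 13.5, 40.2, and 33.5 CPM. Since 5 of the 24 had a lowest library under 5 CPM, they passed the level filter through the pools where they were high, and of the other 19 members 4 were variable, against 1.71% of genes. The part of these cells in the monocyte, interferon, and chemokine differences of replicate 1 was not tested.

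Several lists held no variable member, where 2.59% of all genes were variable. No member reached a 2-fold ratio among 20 macrophage core genes, 16 dendritic cell genes, 10 class II and 13 class I genes, 38 early stress genes, 22 actin and cytoskeleton genes, and 21 glycolysis genes. In lists of this size a count of 0 is near that share. The median ratio was 1.28 for macrophage core genes, 1.37 for dendritic cell genes, and 1.3 for class I genes, above the 1.22 of all genes, and 1.15 for early stress genes and 1.13 for actin and cytoskeleton genes, below it. Within the macrophage core the efferocytosis receptor *Mertk* differed the most, with 259, 161, and 139.7 CPM. Of 30 lipid-associated and repair genes, 2 were variable, among them *Chil3*. *Trem2*, a lipid receptor, had 524, 526, and 486 CPM. The steadiest gene with a mean of at least 100 CPM was *Eif3b*, a translation initiation subunit, with 176, 176, and 176 CPM. *Nrbp1*, *Otud5*, *Papola*, *Rtn3*, *Fuca2*, *Ap2m1*, *Prkx*, *Stk24*, and *Gpi1* followed, with ratios of 1.01.

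More genes lay apart among the vehicle pools than among the pools of each drug group. With the same rule 165 of 10264 genes were variable among the 3 spironolactone libraries (1.61%) and 78 of 10210 among the 3 prednisolone libraries (0.764%). The biological coefficient of variation, the spread that remains after counting error, was estimated over the genes that pass edgeR's filter on low counts (14632 among the vehicle pools). It was 0.185 among the vehicle pools, 0.157 among the spironolactone pools, and 0.114 among the prednisolone pools. The difference between these spreads was not tested. Without replicate 1 the vehicle value was 0.135, under the spironolactone value but above that of prednisolone, and 74 genes were variable. Without replicate 3 the value was 0.191 and 126 genes were variable, so both counts fell under the 165 of spironolactone. These vehicle values come from 2 libraries and those of the drug groups from 3, since no drug library was left out. Of the 263 variable genes, 245 could be measured with spironolactone and 58 of them were variable there, which is 23.7% of these genes and 35.2% of the spironolactone total. With prednisolone 29 of 227 were variable (12.8%, and 37.2% of the prednisolone total). Single pools with many granule transcripts were not particular to vehicle: *Ngp* had 240.04, 186, and 1082 CPM in the spironolactone libraries and 1.94, 25.5, and 0.274 CPM in the prednisolone libraries. The neutrophil sum ran from 1859 to 4620.4 CPM with spironolactone and from 1352 to 1784 CPM with prednisolone.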

How the data were processed

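RNA of sorted quadriceps CD45+CD11b+ cells was sequenced in 9 libraries, each pooled from 3 mice, and the 3 vehicle libraries were grouped by their treatment label. Per the submitters' processing notes and the methods, the authors aligned reads to mm39 with HISAT2 2.2.1 and counted them per gene with HTSeq 0.11.3. The deposited values are whole-number counts without normalization. The annotation release and the strand setting are not given in the sources used here, so reads of overlapping genes on opposite strands cannot be assigned with certainty. The closing lines of each table hold reads that were outside genes, ambiguous, multi-mapped, of low alignment quality, or not aligned. They made up 19.8%, 19.2%, and 18.9% of the vehicle libraries and were left out. The deposited comparison tables hold log2 fold changes and p-values made by the authors with DESeq2 1.32.0 and were not used.

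CPM values are counts scaled to a total of 1000000 on genes. TPM used the merged exon length of each gene in a GRCm39 annotation, matched by symbol for 40316 genes with 98.6% of counts. Variation was measured among genes with a mean of at least 5 CPM, as the highest to lowest ratio, with 2 as the threshold, and as the SD of log2 CPM after adding 0.5 CPM. Ratios carry 95% exact counting intervals. The ratio code was tested on simulated data. Dispersion came from edgeR 4.0.16 in R 4.3.3 and size factors from DESeq2 1.42.0. Tables were computed with Python 3.11.15, pandas 2.3.3, and SciPy 1.17.1. The text names the 25 most abundant and 25 most variable genes, the 10 steadiest with a mean of at least 100 CPM, the sort and flow markers, the sex chromosome genes, and in each list the 3 highest and 2 most variable members. Genes outside this rule were chosen after their values were seen, among them *Tnf*, *Il10*, *Ccl2*, *Ccr2*, *Trem2*, *Timd4*, *Epx*, and *Ly6g*. The members and lists were chosen with earlier results of these data known. Alternatives were TPM, TMM and DESeq2 scaling, other level filters, totals without mitochondrial genes, and leaving out each library. The adjustment for length classes and the filter on the lowest library were chosen after seeing the data. Results for some genes are not reported here.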

Additional observations from a re-analysis of the deposited data

How the results depend on the processing

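No paired analysis was possible because no groups were compared and no test was made. Of the 70 alternative values of the main results, 51 were classed as the same and 19 moved. The same meant a change under the SD of the libraries, or within 1.5 times for a count. Leaving out 1 library cannot move a mean over 3 libraries by their SD, so such values were the same by arithmetic. For the biological coefficient of variation, the yardstick was the SD of the values that each leave out 1 library. With TPM in place of CPM, 178 genes held 50% of the total, the 10 most abundant genes held 19.8%, and the shares became 4.67% for the macrophage core, 8.1% for lipid-associated and repair genes, 14.2% for mitochondrial genes, 5.19% for ribosomal genes, and 3.55% for actin and cytoskeleton genes. Without mitochondrial genes in the total, 651 genes held 50% of counts, the 10 most abundant held 8.89%, and the lipid-associated and actin shares were 7.25% and 3.37%. The count of variable genes was 268 with TMM and 265 with DESeq2 size factors, 1017 among genes with a mean of at least 1 CPM, 99 with at least 20 CPM, 5291 among genes with at least 1 count in each library, and 166 among genes at 5 CPM or more in every library. Leaving out 1 library gave 74 (without replicate 1), 126 (without replicate 3), or 199 variable genes. Of the 25 most variable genes, 10 remained with a mean of at least 20 CPM, 17 with DESeq2 variance-stabilized counts, 22 with edgeR dispersions, and 25 with TMM. The biological coefficient of variation was 0.135 without replicate 1, 0.213 without replicate 2, and 0.191 without replicate 3, and 0.225 with no filter beyond 1 count in total. Depth limits the genes of a few counts, such as *Elane* in replicate 2, and 3 pools limit all SDs. The causes of these shifts were not tested beyond what each alternative changes.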

Other observations

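The summed levels of some further programs of the vehicle cells were not given above. The 16 glucocorticoid-induced genes held 0.32% ± 0.0443 of counts without any added glucocorticoid. They were led by the phosphatase *Dusp1* (1361, 1314, and 1715 CPM in replicates 1 to 3), the transglutaminase *Tgm2* (516, 390.2, and 449 CPM), and the kinase *Sgk1* (453, 299, and 319 CPM). The part of glucocorticoid signaling or of tissue digestion in these levels was not tested. The 22 glycolysis genes held 0.645% ± 0.0342, with the pyruvate kinase *Pkm* at 1556, 1708, and 1921 CPM. The 15 class I antigen presentation genes held 0.695% ± 0.0941, and 12 of the 13 measured were lowest in replicate 1, where 34.1% of all genes were lowest, with *B2m* at 2261, 3143, and 2854 CPM. Circadian clock genes held 0.0828% ± 0.00597. Of 12 measured, 9 were highest in replicate 1, where 48.1% of all genes were highest. Among the 9 was the repressor *Per2* (15.9, 7.96, and 8.96 CPM). Relative to genes of the same length class, the median shift of this list in replicate 1 went from 0.24 to 0.14 (log2).

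A few variable genes were picked out after their values were seen, since no list holds them. *Slfn4*, a Schlafen family gene of myeloid cells, had 277, 491, and 902 CPM. *Asprv1*, an aspartic protease, had 37.7, 119, and 128 CPM, and the organic anion transporter *Slco2b1* went the other way with 122, 61.1, and 57 CPM. *Erdr1* and *Mid1*, at the region that the mouse X and Y chromosomes share, had 44.6, 21.8, and 10.8 CPM and 15.2, 13.7, and 5.92 CPM, lowest in replicate 3 as the Y-linked genes were.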
